A study of Bos taurus with 10 samples.

Results

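Fragments of leucine and serine transfer RNAs (tRNAs) were followed in small RNA libraries of bull sperm from 4 fertility groups. Members were the entries named tRNA-Leu or tRNA-Ser and counted as 5′, 3′, whole or neither end, which gave 184 of the 184397 entries of the table of tRNA-derived small RNAs. They came from 46 tRNA names, 21 for leucine and 25 for serine, with 10 anticodons in all. The groups were high bull fertility (HB), low bull fertility (LB), high daughter fertility (HD) and low daughter fertility (LD), the last pair describing fertility associated with the bull's daughters. Each group had 3 of the 10 samples. Of the HB samples, 1 was also an HD sample and 1 was also an LD sample, so the bull and daughter comparisons share 2 libraries. All samples were Bos taurus sperm without extra treatment, and the labels do not say that they came from separate bulls. The p-values then measure only the spread between these samples, which may be technical.

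Leucine and serine tRNAs differ from most tRNAs in having a long variable arm between the anticodon arm and the T arm, a feature shared with the selenocysteine tRNA. Both amino acids are read by 6 codons, so each has several isoacceptors, that is, tRNAs that carry the same amino acid but differ in anticodon. Sperm hold little intact tRNA and many fragments of it, most of them from the 5′ side, produced by cleavage at the anticodon loop by ribonucleases such as angiogenin. In mice, tRNA fragments of sperm have been studied as carriers of paternal effects on the embryo.

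Each group value was, as read from the values themselves, the middle value of the 3 libraries of a group after scaling to library size, so it carries no spread. All positive values were whole multiples of the value of 1 read in some library of the group, so the reads behind each value are known, though the total depth of a library is not. In normalized units 1 read stood for 0.722 to 1.62 in HB and 0.528 to 1.06 in LB libraries, and for 1.27 to 1.62 in HD and 0.453 to 1.11 in LD libraries. Every HD library thus had fewer reads per normalized unit than every LD library, so this scaling and daughter fertility cannot be told apart. Fragment lengths are not given, and values of different entries are not scaled to length. The sperm and germ cell microRNAs miR-34c, miR-34b, miR-449a and miR-375 together made up 9.21% of the summed microRNA means in the bull comparison and 8.36% in the daughter comparison. Most of this was miR-375, at 6.19% and 5.35%, and miR-891a of the same list had no value. The 5 leukocyte markers made up 0.274% and 0.260%, the 6 epithelial markers 0.321% and 0.286%, the 3 red cell markers 0.239% and 0.215%, the 3 measured stromal markers 0.188% and 0.215%, and miR-122 of liver 0.0334% and 0.0391%. The part of other cells in the results below was not tested. In such bulk samples fewer cells of a type and less RNA per cell cannot be told apart.

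Of the 184 entries, 132 had a value above 0 in at least 1 group, 103 had a mean over the 4 groups of at least 10 normalized units and 40 had a mean of at least 100. The 46 entries for whole tRNA were at 0 in all 4 groups. A middle value of 0 can hide reads in a single library, so this does not show that whole tRNA was absent. Of the 46 entries for 5′ fragments, 33 reached a mean of 10, against 31 for 3′ fragments and 39 for fragments of neither end. Fragments of neither end were above 0 for every name but were less abundant, with 10 entries at a mean of 100 or more, against 22 for 5′ fragments. Leucine entries held 3.72% of the summed values of all tRNA-named fragments in HB and 3.81% in LB sperm, and 2.52% in HD and 5.01% in LD sperm. Serine entries held 2.39% in HB and 1.91% in LB sperm, and 1.94% in HD and 2.12% in LD sperm. Near-identical entries each enter these leucine and serine shares, so they are not shares of reads. Leu-CAG made up 82.1% of the leucine 5′ sum in LD sperm, and its LD value came from the library that is also an HB sample.

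Among leucine tRNAs, the 5′ fragment of Leu-CAG was by far the most abundant. Leu-CAG-1 5′ had a group value of 13019 in HB and 17647 in LB sperm, and of 10337 in HD and 29532 in LD sperm. These values rested on 12999, 33395, 7882 and 40910 reads in that order, and counting error is small at this depth. Leu-CAG-2 5′ had nearly the same values, 13016 in HB and 17645 in LB sperm, and 10335 in HD and 29531 in LD sperm, so both entries appear to count largely the same reads. Taking the most abundant entry of each anticodon, Leu-CAG gave 75.4% of the leucine 5′ signal in HB, 71.8% in LB, 69.4% in HD and 83.7% in LD sperm. The LD value of Leu-CAG-1 5′ came from the library that is also an HB sample, so 1 of the 3 HB libraries held 29532, above the LB value of 17647. The HB and LB libraries therefore overlapped for Leu-CAG 5′.

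By the most abundant entry of each anticodon, the other leucine isoacceptors followed in the order Leu-AAG, Leu-TAG, Leu-CAA and Leu-TAA. With all entries summed, Leu-CAA 5′ stood above Leu-TAG 5′ in LD sperm, at 4186 against 3666. Leu-AAG-1 5′ had 1802 in HB and 3219 in LB sperm, and 2029 in HD and 2571 in LD sperm. Leu-TAG-1 5′ had 1536 in HB and 2251 in LB sperm, and 1506 in HD and 1823 in LD sperm. Both entries had their highest value in LB sperm, and the order of Leu-AAG above Leu-TAG held in each group but has no measured spread. Leu-CAA-1 5′ had 718 in HB and 1132 in LB sperm, and 736 in HD and 1063 in LD sperm, while Leu-TAA-1 5′ had 185 in HB and 321 in LB sperm, and 279 in HD and 302 in LD sperm. In 8 of the 15 leucine 5′ entries with a mean of at least 10, the library with both an HB and an LD label was the middle one of LD sperm and lay above the HB value.

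Serine 5′ signal came from Ser-TGA, Ser-AGA and Ser-GGA. Ser-TGA-1 5′ had 2874 in HB and 3231 in LB sperm, and 2874 in HD and 3715 in LD sperm. Ser-AGA-1 5′ had 2874 in HB and 3219 in LB sperm, and 2874 in HD and 3710 in LD sperm. The equal HB and HD values are 1776 reads of the library that carries both labels, and the entries of these 2 anticodons cannot be taken as separate measurements. Over all 7 abundant Ser-AGA and Ser-TGA 5′ entries the values spanned 2656 to 2874 in HB and 2760 to 3231 in LB sperm, and 2648 to 2874 in HD and 3421 to 3715 in LD sperm. Ser-GGA-1 5′, the 1 name with this anticodon, had 1057 in HB and 1371 in LB sperm, and 1241 in HD and 1554 in LD sperm. The remaining serine isoacceptors were scarce at the 5′ end: Ser-GCT-4 5′ had a mean of 42.5 and Ser-CGA-3 5′ of 20.4.

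**Figure D1:**
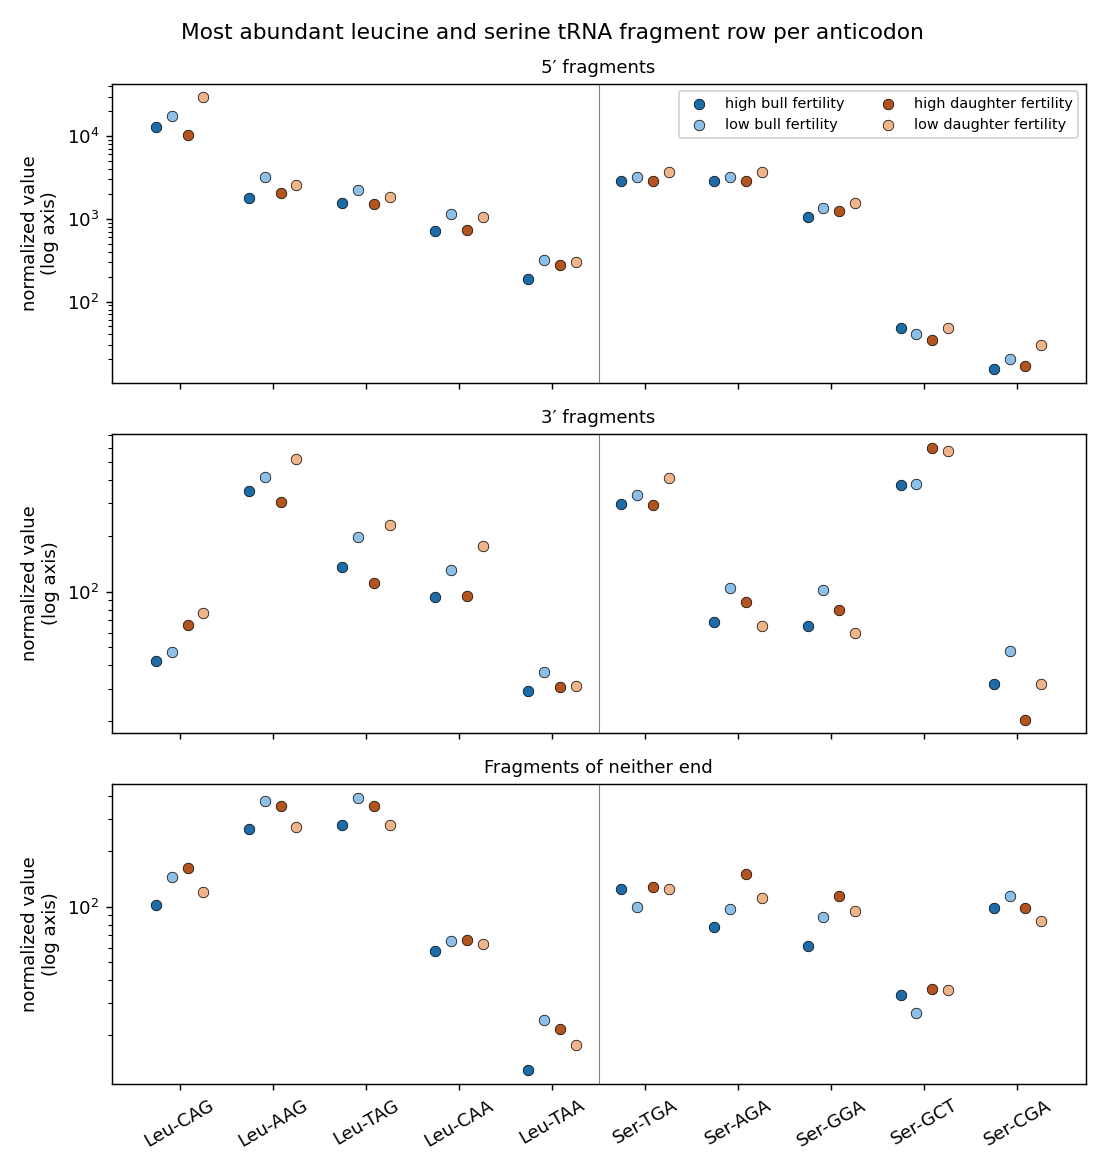
Group values (normalized units, log axes that differ between panels) of the most abundant entry per anticodon for 5′ fragments (top), 3′ fragments (middle) and fragments of neither end (bottom), with 1 point per group and no error, since the group values carry none. Leu-CAG leads the 5′ panel at 10337 to 29532 but is near the bottom of the 3′ panel, where Ser-GCT reaches 601.

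The balance of the ends differed between isoacceptors of the same amino acid. For Leu-CAG the summed 5′ values were 394 times the 3′ values in HB and 522 times in LB sperm, and 270.5 times in HD and 560 times in LD sperm. For Ser-GCT, the isoacceptor for the AGC and AGU codons, the order was turned round: the 5′ sum was 0.249 of the 3′ sum in HB and 0.220 in LB sperm, and 0.101 in HD and 0.146 in LD sperm. Near-identical entries enter these sums more than once. With the most abundant entry of each end alone, the Leu-CAG ratio was 309.5 in HB, 375 in LB, 156 in HD and 386 in LD sperm. The Ser-GCT ratio was then 0.127 in HB, 0.105 in LB, 0.0572 in HD and 0.0827 in LD sperm. The leading 3′ entry of this isoacceptor, Ser-GCT-2 3′, had 376 in HB and 382 in LB sperm, and 601 in HD and 576 in LD sperm. The LD value is that of the library that is also an HB sample, so an HB library held 576 as well and the HB and LB libraries overlapped. For Ser-CGA most of the signal came from neither end, 76.4% in HB and 68.8% in LB sperm, and 79.9% in HD and 66.1% in LD sperm. For these 3 isoacceptors the leading end was the same in all 4 groups, and LB sperm share no library with the others.

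Names with the same anticodon also differed from each other. Of the 11 Ser-GCT names, 7 had a 5′ mean of at least 10, all between 41.5 and 42.5, while 4 had a 3′ mean over 100. Ser-GCT-2 and Ser-GCT-3 had both, with 3′ means of 484 and 379. Ser-GCT-6 had a 3′ mean of 379 and a 5′ mean of 6.83, and Ser-GCT-11 had a 3′ mean of 271 with its 5′ entry at 0. Among the 8 Ser-AGA and Ser-TGA names, Ser-TGA-3 stood apart: its 5′ mean was 10.6, where the other 7 had 2871 to 3174, and its 3′ mean was 334, where the others had 10.6 to 90.5. Leu-TAG-4 was the one abundant leucine name led by fragments of neither end, with a mean of 326 against 125 for its 5′ fragment. The 5′ fragments led in 26 of the 46 names, the 3′ fragments in 7 and those of neither end in 13.

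**Figure D2:**
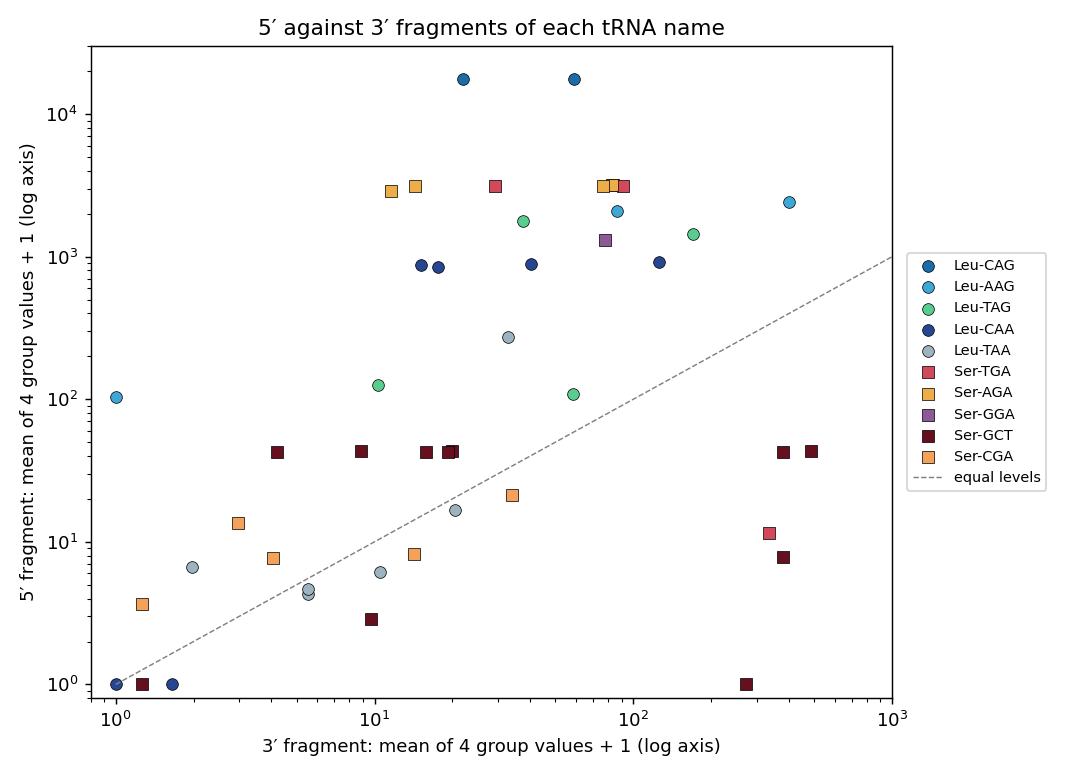
Mean of the 4 group values, plus 1, of the 5′ fragment (vertical, log axis) against the 3′ fragment (horizontal, log axis) of each of the 46 tRNA names, with circles for leucine, squares for serine and a dashed line at equal levels. Leu-CAG names lie far above the line, and 4 Ser-GCT names and Ser-TGA-3 lie below it with 3′ means over 100.

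Leucine and serine signal both came mostly from the 5′ end. Set beside all other tRNA isotypes together, the 5′ share was higher for leucine and lower for serine in each group. Over distinct entries, 5′ fragments made up 94.4% of the leucine signal and 86.2% of the serine signal, as means over the 4 groups, which ranked sixth and ninth among the 24 isotype labels. The selenocysteine tRNA, which has a long variable arm too, stood at 52.0% with 33.7% from the 3′ end, and the 3′ share of serine was 8.96% against 2.19% for leucine. By group, the 5′ share of leucine was 93.8% in HB and 94.3% in LB sperm, and 91.5% in HD and 96.0% in LD sperm. For serine it was 87.4% in HB and 87.5% in LB sperm, and 83.0% in HD and 86.8% in LD sperm. All other tRNA isotypes together had 88.8% in HB and 88.9% in LB sperm, and 90.5% in HD and 88.9% in LD sperm. Near-identical entries still enter these shares more than once, whereas the selenocysteine tRNA has 1 name. With 1 value per group, none of these shares could be tested.

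**Figure D3:**
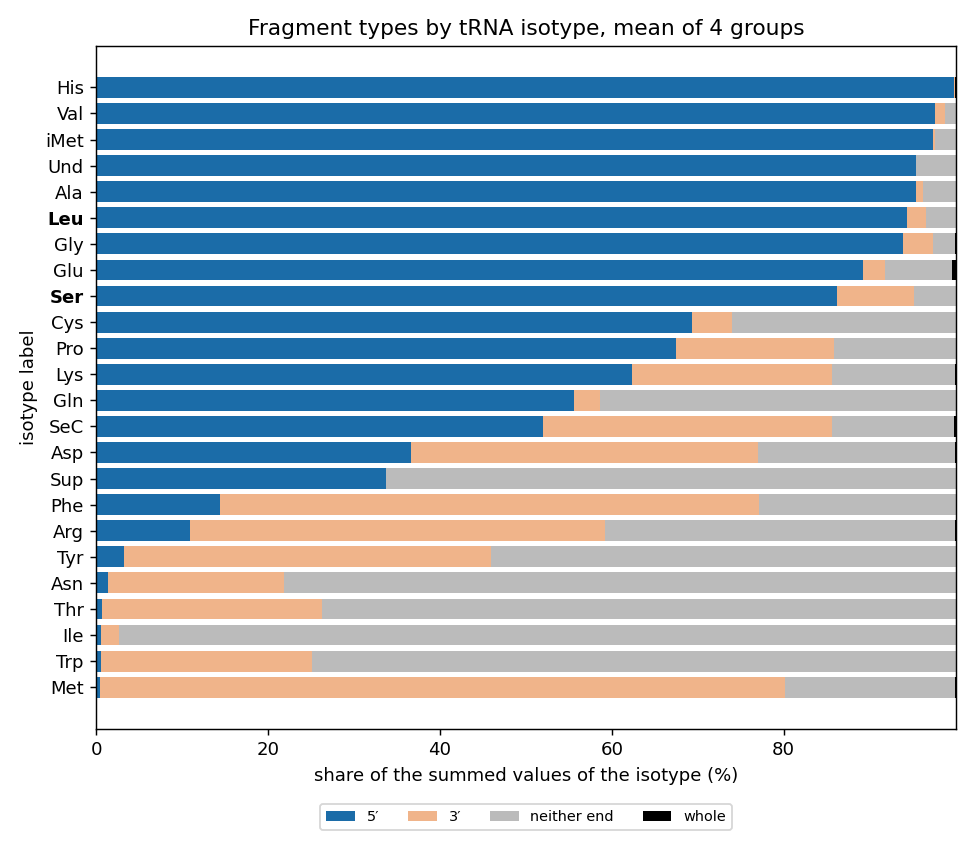
Share of 5′, 3′, neither-end and whole fragments (% of the summed values over distinct entries, mean of the 4 groups) for each of the 24 isotype labels, ordered by their 5′ share, with leucine and serine in bold. Leucine has 94.4% and serine 86.2% from the 5′ end, against 52.0% for selenocysteine (SeC).

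For bull fertility, no leucine or serine fragment passed an adjusted p of 0.05. Of the 184 members, 136 had a p in the authors' deposited table, and Benjamini-Hochberg adjustment over all 98760 entries with a p gave 0 members under the threshold, against 0% of all entries. Of the 103 members with a mean of at least 10, 0 had an unadjusted p under 0.05, against 1.05% of the 3795 entries at that level that had a p. By direction, 0.474% of all entries passed as higher in HB sperm and 0.58% as lower. The authors' deposited table placed 85 of these members below 0 on the log2 fold change scale and 18 above, with a median of -0.34 for HB over LB. The median was -0.19 over the 673 tRNA-named fragments with a mean of at least 10, of which 70.0% were below 0, and -0.03 over all 3850 entries at that level, of which 53.1% were below 0. Below a mean of 10, 1 member had an unadjusted p under 0.05, at 0.0362 in the authors' deposited table. This was Ser-CGA-4 3′, picked out after its value was seen, which was listed at 0 in HB sperm and had 7.93, or 15 reads, in LB sperm.

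All 15 leucine 5′ entries had negative fold changes for bull fertility, with a median of -0.74 in the authors' deposited table. All 15 also had a lower group value in HB than in LB sperm. These entries are not all separate measurements, since the Leu-CAG entries and the 4 Leu-CAA entries have near-equal values. Of the 673 tRNA-named fragments with a mean of at least 10, 70.0% had a negative fold change. This share was not computed for the group values of HB and LB sperm or of HD and LD sperm. Counts of lower group values in these 2 pairs therefore stand without a background. The authors' deposited table gave Leu-AAG-1 5′ a log2 fold change of -1.19, with a 95% interval from -2.98 to 0.61 implied by its p. Leu-TAG-1 5′ stood at -1.16 (interval -2.99 to 0.67) and Leu-CAA-1 5′ at -0.74 (interval -2.47 to 0.98), by the authors' deposited table. Leu-CAG-1 5′, the most abundant of them, was closest to 0, at -0.16 (interval -1.70 to 1.37) by the authors' deposited table. The group values of leucine fragments of neither end were lower in HB than in LB sperm in 17 of 17 entries, such as Leu-TAG-4 with 277 in HB and 392 in LB sperm.

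Turning to serine fragments in the bull fertility comparison, the authors' deposited table placed Ser-TGA-1 5′ at -0.09 (interval -1.31 to 1.13) and Ser-GGA-1 5′ at -0.49 (interval -1.88 to 0.90). Of the 18 serine 5′ entries 17 had a negative fold change in the authors' deposited table (median -0.31), but only 10 had a lower group value in HB than in LB sperm. They are not separate measurements, since 7 are near-equal Ser-GCT entries and 7 are near-equal Ser-AGA and Ser-TGA entries. The 7 Ser-GCT entries had 47.6 in HB and 39.6 to 40.2 in LB sperm. Among the 673 tRNA-named fragments with a mean of at least 10, 70.0% had a negative fold change. Among the 18 serine 3′ entries, 14 were below 0 in the authors' deposited table, with a median of -0.57, and Ser-AGA-1 3′ stood at -0.69 (interval -1.95 to 0.57). Ser-AGA-1 3′ had 68.6 in HB and 105 in LB sperm. Ser-GCT-2 3′ stood at -0.00 (interval -1.80 to 1.79) by the authors' deposited table. The difference between the ends was not tested. The intervals of all 103 members include 0, and with implied standard errors of 0.622 to 1.03 they do not show that the groups are alike.

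For daughter fertility, again no member passed: after Benjamini-Hochberg adjustment of the p from the authors' deposited table, 0 of 136 members were under 0.05, against 0% of all entries. Of the 103 members with a mean of at least 10, 7 had an unadjusted p under 0.05, or 6.80%, against 3.37% of the 3795 entries at that level. Among the 657 tRNA-named fragments at that level with a p, the share was 5.48%, with 36 lower and 0 higher. The members thus lay near the share of tRNA-named fragments and had the same direction. All 7 were lower with high daughter fertility, where the share of all entries was 2.24%, and 0 were higher, where it was 1.13%. These 7 were the 5′ entries of Ser-GCT, which had nearly equal values, and with a single entry per anticodon and fragment type the count was 1 of 30. Of the 103 fold changes of HD over LD in the authors' deposited table, 75 were below 0 and 28 above, with a median of -0.45. The median was -0.52 over the tRNA-named fragments, with 80.5% below 0, and 0.04 over all entries at that level.

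The Ser-GCT 5′ entries differed between HD and LD sperm far less in their group values than in their fitted fold changes. Ser-GCT-4 5′ had 34.4 in HD and 47.6 in LD sperm, which rested on 27 and 66 reads. Exact Poisson 95% intervals, which cover counting error only, ran from 22.7 to 50.04 in HD and from 36.8 to 60.6 in LD sperm and so overlapped. On the log2(value + 1) scale the ratio of these group values was -0.46. The authors' deposited table gave a fold change of -2.38 (implied SE 0.96, interval -4.27 to -0.48), with an unadjusted p of 0.0139 and an adjusted p of 1 after Benjamini-Hochberg adjustment. Over all 7 entries the ratio of group values spanned -0.62 to -0.46 and the fold change of the authors' deposited table -2.45 to -2.35. The 47.6 of LD sperm was also the HB value, 66 reads of the library with both labels, and LB sperm had 40.2. The LD and HD libraries other than the middle ones cannot be seen in these values. Ser-GCT-2 3′ stood at 0.19 (interval -1.60 to 1.98) in the authors' deposited table, and the difference between the ends was not tested.

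Among leucine fragments in the daughter fertility comparison, the authors' deposited table gave Leu-CAG-1 5′ a fold change of -1.18 (interval -2.72 to 0.35) with an unadjusted p of 0.130. Leu-AAG-1 5′ stood at -0.01 (interval -1.81 to 1.78) and Leu-TAG-1 5′ at -0.23 (interval -2.06 to 1.60) by the authors' deposited table. Of the 13 leucine 3′ entries 12 were below 0 in the authors' deposited table, with a median of -1.12, and the group values were lower in HD than in LD sperm in 12 of 13. Leu-AAG-1 3′ had 307 in HD and 521 in LD sperm, and the authors' deposited table gave it -1.25 (interval -2.86 to 0.37). For leucine fragments of neither end the signs differed: 15 of 17 fold changes of the authors' deposited table were below 0 (median -0.46), whereas the group value was lower in HD than in LD sperm in only 3 of 17. Leu-CAG-1 of neither end had 163 in HD and 121 in LD sperm, against a fold change of -0.44 (interval -1.94 to 1.06) by the authors' deposited table.

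All 18 serine 5′ entries were lower with high daughter fertility, both in group values and in the fold changes of the authors' deposited table, whose median was -0.78. They are not separate measurements, since 7 are near-equal Ser-GCT entries and 7 are near-equal Ser-AGA and Ser-TGA entries. Of the 673 tRNA-named fragments with a mean of at least 10, 80.5% had a negative fold change. This share was not computed for the group values, so their count stands without a background. Ser-TGA-1 5′ stood at -0.58 (interval -1.80 to 0.64) by the authors' deposited table. Ser-TGA-3 5′ had 3.93 in HD sperm, which is 3 reads, and 16.8 in LD sperm, which is 37 reads, and the authors' deposited table gave a fold change of -1.69 (unadjusted p 0.0887). At the 3′ end 12 of 18 serine entries were above 0, with a median of 0.15, and Ser-AGA-1 3′ stood at 0.30 (interval -0.96 to 1.56) by the authors' deposited table. Ser-AGA-1 3′ had 87.9 in HD and 65.7 in LD sperm. Of the 103 intervals 96 include 0, all but those of Ser-GCT 5′.

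**Figure D4:**
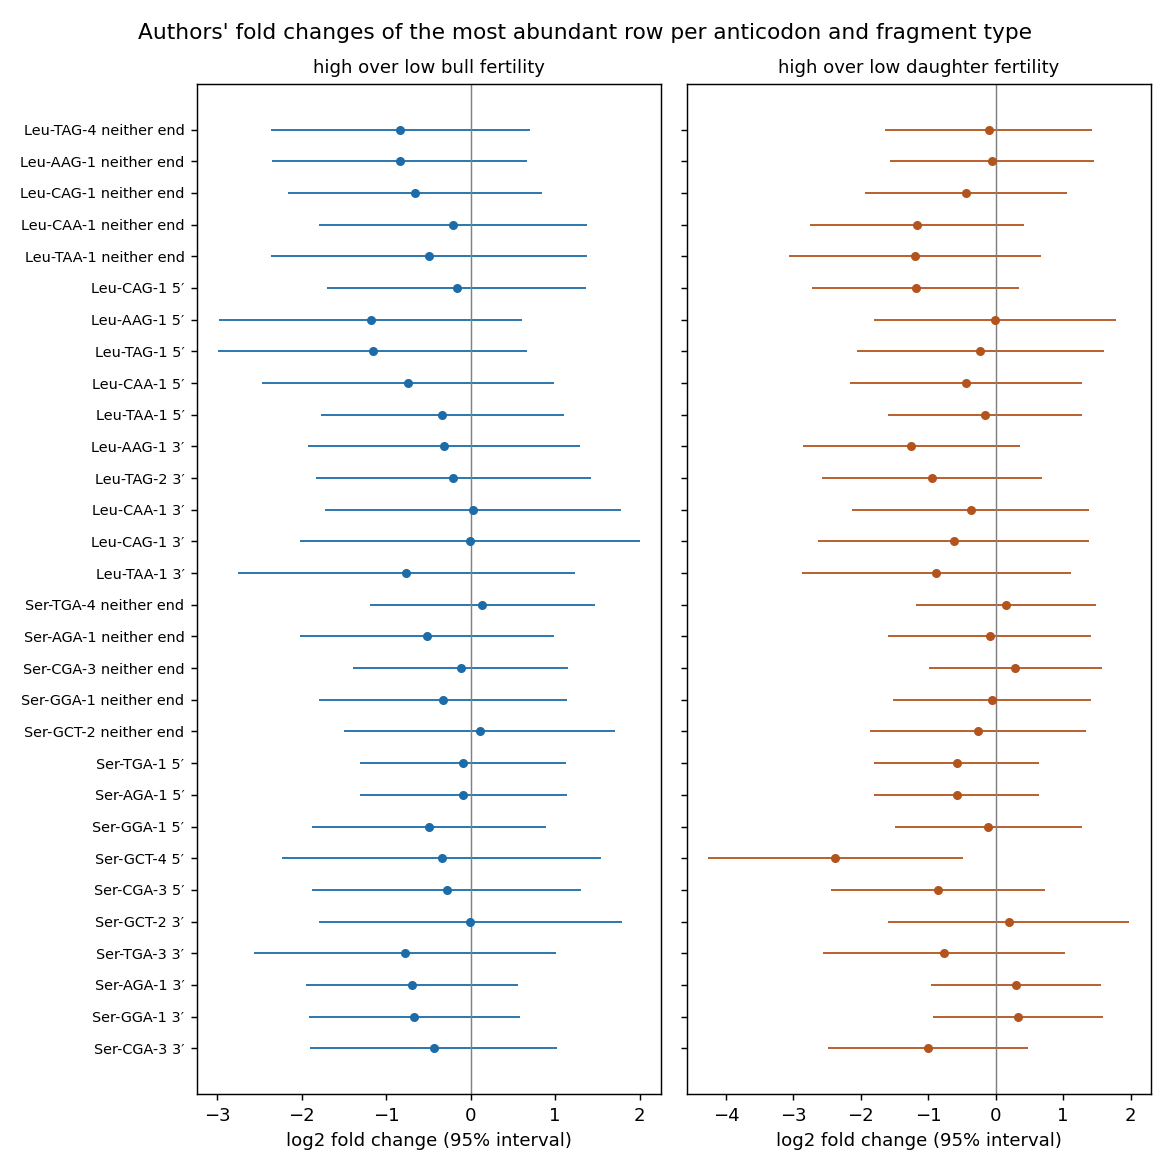
Log2 fold changes of the authors' deposited table (points) with the 95% intervals implied by their p-values (lines) for the most abundant entry of each anticodon and fragment type, high over low bull fertility on the left and high over low daughter fertility on the right. Every interval drawn includes 0 except that of Ser-GCT-4 5′ for daughter fertility, at -2.38.

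Summed over distinct entries, leucine 5′ values were 35545 in HB and 50460 in LB sperm, a log2 ratio of -0.51, and 30683 in HD and 71930 in LD sperm, a log2 ratio of -1.23. Serine 5′ sums were 21284 in HB and 23392 in LB sperm, a log2 ratio of -0.14, and 21354 in HD and 27491 in LD sperm, a log2 ratio of -0.36. For leucine 3′ fragments the log2 ratio of the sums was -0.22 for HB over LB and -0.73 for HD over LD sperm, and for serine 3′ fragments it was -0.12 for HB over LB and -0.04 for HD over LD sperm. Near-identical entries enter these sums more than once, and Leu-CAG makes up most of the leucine 5′ sum.

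LB and LD sperm, which share no library, could be set side by side by group values alone, and this pair was not tested. The leucine 5′ sum was 50460 in LB and 71930 in LD sperm, a log2 ratio of -0.51. Most leucine 5′ entries went the other way: 12 of 15 were higher in LB than in LD sperm, with a median log2 ratio of 0.09, as Leu-AAG-1 5′ with 3219 in LB and 2571 in LD sperm. All 18 serine 5′ entries, many of them near-equal to each other, were lower in LB than in LD sperm, with a median of -0.24. Of the 673 tRNA-named fragments with a mean of at least 10, 62.6% were lower in LB sperm. The serine 3′ sum, 2106 in LB and 2876 in LD sperm, had a log2 ratio of -0.45, with Ser-GCT-2 3′ at 382 in LB and 576 in LD sperm, whereas 10 of 18 entries were higher in LB sperm and their median was 0.35. Over all 103 members the median log2 ratio of LB over LD was -0.13, against -0.22 for the tRNA-named fragments with a mean of at least 10.

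Fragments of other isotypes with the most similar profile over the 4 groups were sought among 290 entries with a mean of at least 100. For Leu-CAG-1 5′ the 5 nearest were all alanine 5′ entries with nearly equal values, so they cannot be taken as separate neighbours. Ala-TGC-1 5′ led them at a distance of 0.238 on the centred log2 scale. It had 1131 in HB and 1530 in LB sperm, and 1062 in HD and 2443 in LD sperm. For Ser-TGA-1 5′ the 5 nearest were entries of neither end of glutamate, asparagine and proline tRNAs and 1 arginine 3′ entry, led by Glu-TTC-3 at 0.0958. With 4 points each, and libraries shared between them, these distances are a description.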

How the data were processed

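Per the labels' protocols, sperm RNA came from a miRNeasy Mini Kit and small RNA libraries from a NEBNext RNA kit. The submitters' processing notes name Trimmomatic 0.39 and DESeq2 1.34.0 and give no role for either. How reads were aligned, to which build and tRNA set, and how reads that match several entries were counted is not stated in the sources at hand. Per the file headers, the table of tRNA fragments holds the authors' log2 fold changes, their unadjusted p-values and 1 normalized signal per group. From the microRNA tables only the authors' mean normalized signal was used, for the marker check.

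Positive group values were whole multiples (tolerance 1e-04) of 1 of 3 steps per group. Where a library with 2 labels gave the value of one group, that value was set beside the value of its other group. It lay above in 47 cases, below in 23 and was equal in 33, where a case is 1 member entry in 1 library. P-values were adjusted by the Benjamini-Hochberg method over all entries with a p. Standard errors and 95% intervals were derived from fold change and p as for a Wald statistic. For members with a mean of at least 10 the standard errors differed by at most 0.0123 between the comparisons, as a single fit over all groups would give. How the libraries with 2 labels entered the fit is not stated. If they were entered under both labels, the p-values and intervals count them as extra replicates. Entries with equal values in all 4 groups were counted once in sums. The shares of leucine and serine in all tRNA-named fragments are the exception, with every entry counted.

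Members and lists were chosen with earlier results of these data known. Named entries were the most abundant per anticodon and fragment type, the 6 most abundant per isotype and, per comparison, up to 5 per direction by p, all among entries with a mean of at least 10, and the text gives the leading ones. A comparison of LB with LD sperm was planned, but no fold change for it was at hand. Python 3.11.15, pandas 2.3.3 and scipy 1.17.1 were used, and the adjustment and step finding were tested on simulated data.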

Additional observations from a re-analysis of the deposited data

Results flagged for a closer look

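Antisense reads of serine tRNAs lie outside the fragment types described above and exceeded what 3 reads are worth in all 4 groups. The mean over the groups was 12.6 for Ser-AGA-4, 11.7 for Ser-TGA-1, 11.5 for Ser-TGA-4 and 11.3 for Ser-AGA-1 antisense. Ser-AGA-1 antisense had 19.0 in HB and 6.87 in LB sperm, and 14.4 in HD and 5.05 in LD sperm. In the authors' deposited table its log2 fold changes were 1.07 (implied SE 0.97) and 1.15 (implied SE 0.98), with an adjusted p of 1 in both comparisons after Benjamini-Hochberg adjustment. Whether the counting kept strands apart is not stated. No other flag could be set, since no values per library were at hand.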

How the results depend on the processing

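The number of members past an adjusted p of 0.05 stayed at 0 in both comparisons when p was adjusted only over entries with a mean of at least 10, or only over tRNA-named entries at that level. The number with an unadjusted p under 0.05 was 1 instead of 0 for bull fertility with no minimum. For daughter fertility it was 0 instead of 7 with a minimum of 100, which leaves out Ser-GCT 5′, and 1 with a single entry per anticodon and fragment type, a choice made after seeing the data. The shares of 5′, 3′ and neither-end fragments within leucine and serine moved by less than 1.5 times when entries were summed in other ways. Shares of single anticodons moved more: with entries summed, Ser-GGA gave 4.97% of the serine 5′ signal in HB sperm and Leu-CAA 7.73% of the leucine 5′ signal, against 15.4% and 4.16% with the most abundant entry of each anticodon. Medians and ratios of sums moved by at most 0.29 on the log2 scale, a shift of similar size to several of the values themselves. The serine 3′ ratio for daughter fertility was 0.06 with the most abundant entry alone, where the sum gave -0.04, and the LB over LD median was 0 with no minimum. No paired analysis was possible because the table gives 1 value per group. For the same reason no library could be left out. Depth limits the scarce members: 1 read was worth up to 1.62 units in HD sperm and as little as 0.453 in LD sperm.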

Other observations

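Leucine and serine entries that bear a tRX prefix (tRNA-like loci) reached levels like those of the serine tRNA entries. The most abundant, tRX-Leu-NNN-3 5′, had 4386 in HB and 3634 in LB sperm, and 3989 in HD and 5750 in LD sperm. The serine entry tRX-Ser-NNN-165 5′ had nearly the same values, 4388 in HB and 3624 in LB sperm, and 4005 in HD and 5694 in LD sperm, although their isotype labels differ. Their log2 fold changes in the authors' deposited table were 0.19 and 0.18 for bull fertility, and -0.28 and -0.29 for daughter fertility. Of 4980 such entries 99 had a mean of at least 10. Reads of tRNA precursors were near the limit of detection: the 10 trailer entries and the 10 whole-precursor entries of leucine and serine tRNAs were at 0 in all 4 groups.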
